A study of Mus musculus with 3 samples.

Results

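The 8 loci described here each had 6 or more peaks of histone H3 acetylated at lysine 27 (H3K27ac) listed for spheroids of untreated mice. These peaks overlapped no peak listed for spheroids of mice treated earlier with caerulein. A run here is such a count per gene and need not be unbroken. The loci are Atp2b1, Clic5, Fut9, Ceacam12, Arrdc4, Samd9l, Ssbp3 and Shoc1. They were chosen by their counts of list-only peaks, and are 8 of the 20 protein-coding genes, out of 21887, that had 6 or more untreated-only peaks and 0 post-caerulein-only peaks (0.0914% of genes). A peak was untreated-only when no base of it lay under a peak of the post-caerulein list, which held for 14.3% of untreated peaks. It was then assigned to the protein-coding gene whose end was closest, up to 100 kb away. Because these counts made the choice, they are a description with no test. The other 12 genes were Prom1 with 10 untreated-only peaks, Foxo1 with 8, Hopx with 7, and Barx2, Cftr, Fundc1, Il20rb, Itprid2, Pgap1, Ppp3ca, Rptor and Zcchc13 with 6 each. Just outside the limit, 26 genes had 5 untreated-only and 0 post-caerulein-only peaks, the first of them in alphabetical order being Adipor2, Ank, Clcn5 and Ctnnbl1.

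The spheroids are three-dimensional cultures of pancreatic epithelial cells of wild-type C57BL/6J mice, grown in medium with EGF, hydrocortisone and cholera toxin. One group came from untreated mice and the other from mice after treatment with caerulein, which acts on the cholecystokinin receptor and sets off pancreatitis. Each group has 1 H3K27ac library, and an input library of untreated spheroids, for which no peak list was used here, completes the series. Having 1 library per group, the study allows no replicate error and no p-value for any difference here, and the sources used do not say how many mice each library pools. The untreated list held 37765 peaks and the post-caerulein list 38793, from libraries of unknown depth. Of the fixed epithelial markers with a listed gene start, 4 of 4 (Krt7, Krt8, Krt18 and Epcam) had a peak within 1 kb of it in both lists, against 1 of 8 acinar, 0 of 4 endocrine, 0 of 2 mesenchymal and 0 of 3 endothelial genes. Among the immune genes with a listed start, 1 of 4 was marked in the untreated list (Cd68) and 2 of 4 in the post-caerulein list (Cd68 and Ptprc). No share of marked starts over all genes is given beside these counts. List-only peaks of these marker lists leaned to one side for endothelial genes, 4 of 5 of which had more untreated-only peaks (6 peaks against 1 over the list), and for immune genes, 2 of 5 of which had more post-caerulein-only peaks (2 against 0). The mesenchymal list had 1 gene of 5 with more post-caerulein-only peaks (1 against 0). The ductal and epithelial list had 1 gene of 8 with more post-caerulein-only peaks (2 against 1 over the list). The acinar and endocrine lists had 0 list-only peaks. Over all genes, 11.4% had more untreated-only and 13.4% more post-caerulein-only peaks. The part of other cell types in the runs was not tested.

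H3K27ac is laid down on nucleosomes beside active promoters and enhancers by the acetyltransferases p300 and CBP and is removed by histone deacetylases. A gene can have several such regions along and around its body, and neighbouring regions can gain or lose the mark together. The lists give the outline of each region and a caller's score, not the amount of acetylation in each cell.

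The 53 untreated-only peaks of the 8 loci were narrow regions of low score, as untreated-only peaks were in general. Their widths ran from 653 to 3282 bp with a median of 1592 bp, against a median of 1536 bp over all 5402 untreated-only peaks and 2697 bp over shared peaks. Scores ran from 50.3 to 1152.48 with a median of 135.84, against 108.09 over all untreated-only peaks, where the untreated list as a whole starts at 50, has a median of 681.38 and piles up at 3100. The lowest-scored 25% of the list took in 30 of the 53 peaks, against 68.5% of all untreated-only peaks, and 5 lay at or above the list's median, 1 each at Arrdc4, Shoc1, Ssbp3, Ceacam12 and Fut9. Over all untreated-only peaks 5.63% lay at or above that median. Bodies of the 8 genes held 32 of the 53 peaks, and 21 lay outside them. For these 2 counts, no share over all untreated-only peaks is given. With untreated-only peaks held to the median score, 0 of the 8 loci met the rule. With peaks merged across gaps of up to 1 kb, 2 did (Samd9l and Clic5, with 6 each), and with a 10 kb limit 1 did (Ceacam12).

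**Figure D1:**
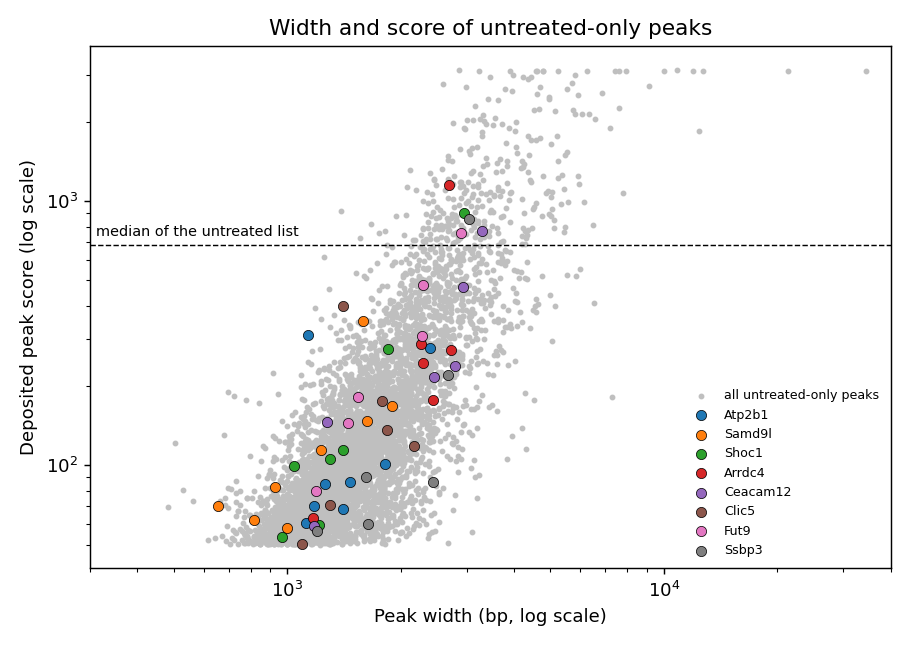
Width (horizontal axis, bp, log scale) against deposited score (vertical axis, log scale) of untreated-only peaks: grey points are all 5402 such peaks, coloured points the 53 peaks of the 8 loci, and the dashed line the median score of the untreated list. The coloured points lie within the grey cloud, with 5 of them above the line.

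Within the gene body and 100 kb on each side, more sequence lay under peaks in untreated spheroids at each of the 8 loci. There the covered length was 52.3 kb untreated and 29.6 kb after caerulein at Atp2b1, 25.4 and 13.9 kb at Clic5, and 56.1 and 23.2 kb at Arrdc4. It was 13.8 and 3.88 kb at Samd9l, 80.8 and 58.7 kb at Ssbp3, and 61.0 and 35.1 kb at Shoc1. At Ceacam12 it was 13.9 kb untreated and at Fut9 11.7 kb, and neither window held a post-caerulein peak. Over all genes with a peak in such a window, 47% had the larger length in the untreated list and 6.91% had a length 1.5 times or more that of the post-caerulein list, against 8 and 7 of the 8 loci. Ssbp3, with a ratio of 1.38, was the exception to the latter. Covered length comes from the same contrast as the rule, so these counts describe the loci and support nothing further. With 10 kb on each side the difference at Fut9 was 0 kb and with 50 kb it was 1.19 kb, and at Samd9l it was 0.188 kb with peaks held to the median score of their list.

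**Figure D2:**
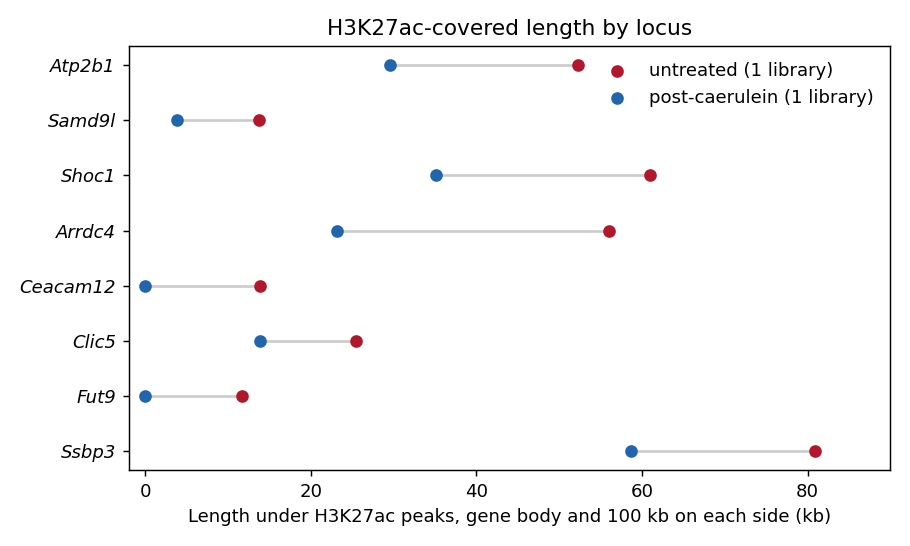
Length under H3K27ac peaks (horizontal axis, kb) within each gene body and 100 kb on each side, in the untreated (red) and post-caerulein (blue) library; each point is 1 library and grey lines join the points of a locus. The red point lies to the right at all 8 loci, from 11.7 kb at Fut9 to 80.8 kb at Ssbp3, and the blue points of Ceacam12 and Fut9 lie at 0.

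Gene starts were known for 6 of the 8 genes from RefSeq promoter entries on GRCm38.p6, and Shoc1 and Fut9 had no entry. At Atp2b1, Arrdc4, Clic5 and Ssbp3 a peak of each list covered a listed start. At Samd9l the nearest peak ended 20 bp from the start in the untreated list and 39 bp from it in the post-caerulein list. Ceacam12 differed from these: its nearest untreated peak lay 1505 bp after the start and its nearest post-caerulein peak 148437 bp away. A start marked in both lists was thus present at 5 of the 6 genes, with no share over all gene starts to set beside it. Ssbp3 also has a second listed start, with an untreated-only peak 646 bp away and the nearest post-caerulein peak 10178 bp away.

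The 250 bases before the start are shown for 4 of these genes, which differ in CpG content and in marking of the start. Of the 4, Samd9l had the fewest CpG dinucleotides and was marked in both lists, while Ceacam12 was unmarked. Capitals mark matches, on either strand, to GGGCGG (the GC box), to CCAAT (bound by NF-Y), to CACGTG (the E-box) or to TATAAA (the TATA box). Matches can overlap each other.
Atp2b1, chr10:98914392-98914641, plus strand: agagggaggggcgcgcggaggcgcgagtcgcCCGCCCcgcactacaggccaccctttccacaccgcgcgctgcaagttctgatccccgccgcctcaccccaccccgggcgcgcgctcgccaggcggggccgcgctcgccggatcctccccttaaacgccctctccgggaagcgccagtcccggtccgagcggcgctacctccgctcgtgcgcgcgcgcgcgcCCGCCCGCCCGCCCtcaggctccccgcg
Arrdc4, chr7:68749239-68749488, minus strand: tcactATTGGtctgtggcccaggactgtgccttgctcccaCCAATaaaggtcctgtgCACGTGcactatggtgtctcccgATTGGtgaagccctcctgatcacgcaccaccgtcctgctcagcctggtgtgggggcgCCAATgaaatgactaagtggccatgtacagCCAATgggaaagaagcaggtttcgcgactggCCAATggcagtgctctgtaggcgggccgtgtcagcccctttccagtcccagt
Samd9l, chr6:3399572-3399821, minus strand: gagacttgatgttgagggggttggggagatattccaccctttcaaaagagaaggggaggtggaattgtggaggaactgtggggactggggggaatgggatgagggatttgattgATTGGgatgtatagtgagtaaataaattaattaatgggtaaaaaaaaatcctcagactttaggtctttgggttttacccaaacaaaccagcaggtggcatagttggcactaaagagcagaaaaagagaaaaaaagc
Ceacam12, chr7:18065679-18065928, plus strand: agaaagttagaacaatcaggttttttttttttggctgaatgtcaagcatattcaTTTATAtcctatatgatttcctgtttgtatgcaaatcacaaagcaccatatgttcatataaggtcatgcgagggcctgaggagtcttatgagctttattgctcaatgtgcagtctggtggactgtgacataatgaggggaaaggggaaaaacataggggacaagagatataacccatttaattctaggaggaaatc
These windows held 43 CpG dinucleotides at Atp2b1, 9 at Arrdc4, 0 at Samd9l and 1 at Ceacam12, against a median of 6 over 32841 RefSeq promoters of the same length. The first listed start of Ssbp3 had 43 and Clic5 had 13. Arrdc4, whose glucose-responsive activator MondoA is known to act through E-box-like elements, held 1 CACGTG (bases 193 to 188 before the start), found in 6.02% of all promoters, and 6 matches to CCAAT, found in 33.9%. GGGCGG, found in 32.7% of promoters, had 4 matches at the first listed start of Atp2b1, of which the last 3 overlap. It had further matches at the second listed start of Atp2b1, and 2 each at Clic5 and the first start of Ssbp3. Samd9l and the first start of Ssbp3 had 1 match each to CCAAT, and Ceacam12 had 1 to TATAAA, on the opposite strand (found in 12.4% of promoters). The letters TGANTCA (AP-1), GGAAGT (ETS), TGTTTAC (forkhead) and those of the interferon-stimulated response element, searched on both strands, were not in any window of the 6 genes, and occurred in 6.75%, 19.7%, 3.17% and 2.98% of promoters. A match is a description of the letters and not a binding site.

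**Figure D3:**
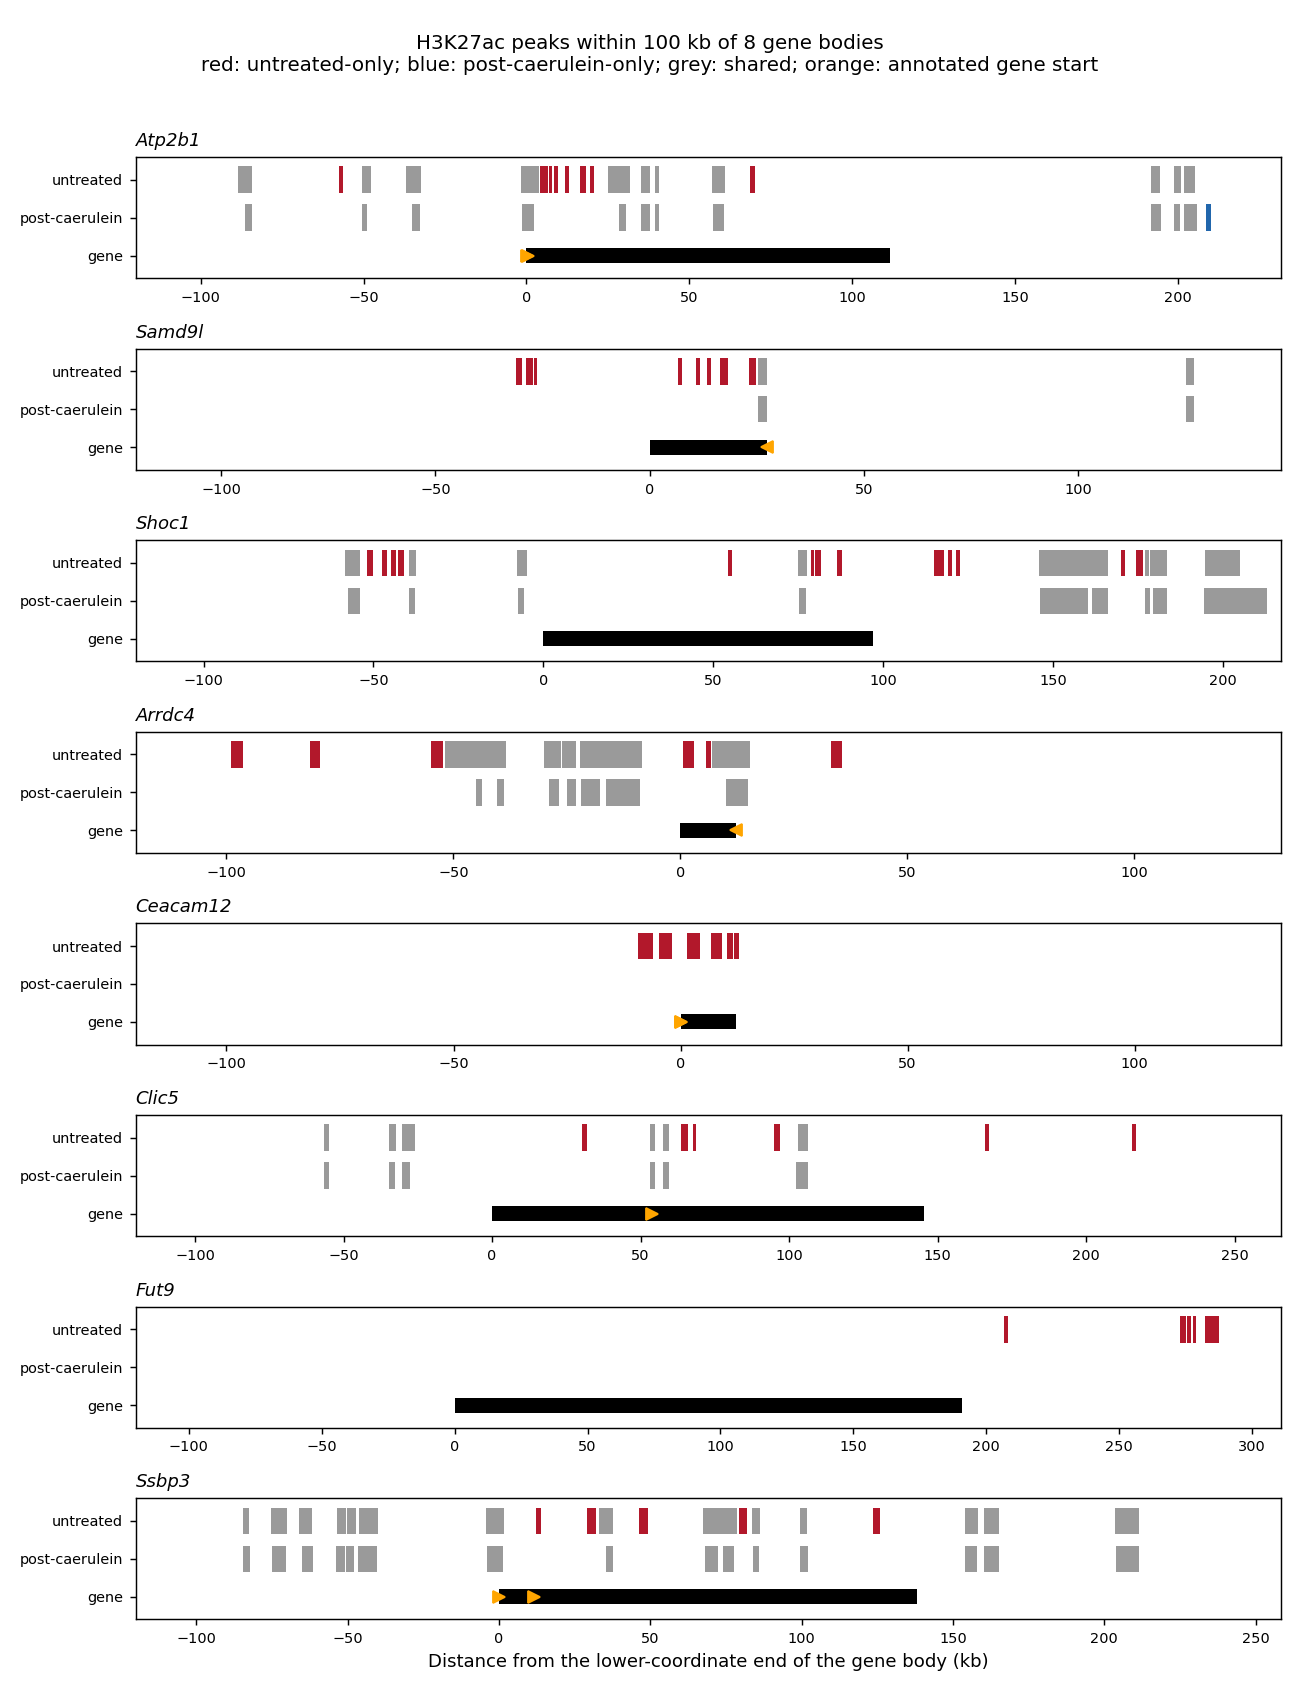
Peaks of the untreated and post-caerulein lists within 100 kb of the 8 gene bodies, drawn to scale by distance from the lower-coordinate end of each body (horizontal axis, kb). Red marks untreated-only peaks, blue the 1 post-caerulein-only peak (in the Atp2b1 window), grey shared peaks, black the gene body and orange arrows the listed starts with their direction. Red peaks follow the start at Atp2b1 and Samd9l, lie before and along the Ceacam12 body, and lie apart from the body at Fut9.

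Atp2b1 encodes the plasma membrane calcium pump PMCA1, which exports calcium from the cytosol (chromosome 10, 98914630 to 99026143, plus strand). Of its 8 untreated-only peaks, 6 followed the start peak without interruption, from 98918734 to 98935478. They covered 9.2 kb of that 16.7 kb stretch, and the post-caerulein list had a gap of 26 kb there. Their widths were 1119 to 2390 bp and their scores 277.96, 69.79, 68.41, 60.36, 100.58 and 84.71, in order from the start, so that the peak nearest to the start had the highest score. The other 2 lay 56443 bp before the gene, over the noncoding gene Gm34346 (score 309.51), and 41384 bp before the far end inside the body (85.95).

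The shared peaks of Atp2b1 also had a broader outline in untreated spheroids. The start peak was 5536 bp wide untreated and 3951 bp after caerulein, with a score of 3100 in each list. Just beyond the run, a region of the body was 6994 bp wide untreated and 2102 bp after caerulein. Upstream of the start, shared peaks measured 4286 against 2143 bp, 2677 against 1223 bp, and 4663 against 2389 bp. Further into the body, peaks had near-equal widths of 2810 against 2835 bp and 1172 against 1169 bp, followed by one of 4102 against 3204 bp. No exon map was used, so exons and introns were not told apart. The outline was not broader at the far side, where 3 shared peaks lay over Poc1b, named because it lies under them. The first of these also lay over Galnt4, a glycosyltransferase gene. The 3 peaks measured 2821 against 3138 bp, 1981 against 1980 bp and 3499 against 3882 bp. The only post-caerulein-only peak in any of the 8 windows also lay over Poc1b, 9883 bp from an end of Galnt4 (1593 bp, score 156.07).

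Clic5 encodes a chloride intracellular channel protein that links the membrane to the actin cytoskeleton in microvilli and stereocilia (chromosome 17, 44134762 to 44280169, plus strand). Its listed start lies within the annotated body, and both lists had a peak over it, of 1561 bp untreated (score 222.33) and 1719 bp after caerulein (229.12). The 6 untreated-only peaks were scattered over 186.5 kb. Inside the body they had scores of 135.84, 118.1, 70.5 and 174.77. Beyond the body, 20384 and 70081 bp from its end, 2 further peaks had scores of 401.45 and 50.3. All 3 shared peaks inside the body, the start peak included, were slightly wider after caerulein, at 4048 against 3236 bp and 2183 against 2129 bp for the other two. Before the gene body, nearest to other genes, they were wider in untreated spheroids, at 4605 against 2437 bp, 2378 against 1844 bp and 1936 against 1656 bp.

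Fut9 encodes the alpha-1,3-fucosyltransferase that builds the Lewis X (SSEA-1) surface glycan (chromosome 4, 25609333 to 25800003). No peak of either list touched its body. The 6 untreated-only peaks lay 16127 to 94047 bp beyond the higher-coordinate end and covered no annotated gene of any class. The outermost 5 formed a cluster from 25882305 to 25896951, with scores of 307.37, 180.34, 144.03, 481.33 and 754.17 and widths of 1449 to 2902 bp. Post-caerulein peaks were absent over 1062.6 kb around them, and the nearest lay 447904 bp from the closest peak of the run. Assignment to Fut9 rests on the distance to the nearest gene end alone, and 1 of the 6 peaks remained with a 50 kb limit.

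Ceacam12 belongs to the carcinoembryonic antigen-related cell adhesion family, a cluster of similar genes on chromosome 7 (18065929 to 18077986, plus strand), so reads may be shared with related copies and its values are uncertain. The 6 untreated-only peaks lay 1 after another from 18056611 to 18078864, and all were joined when gaps of up to 5 kb were closed. In chromosome order the scores were 766.46, 471.54, 237.68, 215.58, 58.6 and 145.71, and the widths 3282, 2923, 2791, 2454, 1178 and 1278 bp. Both measures were highest before the start and lower along the body. They were the only peaks of either list in the window, and the nearest post-caerulein peak lay 135502 bp from the closest of them.

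Arrdc4 encodes an alpha-arrestin, an adaptor for ubiquitin ligases related to the glucose-responsive Txnip (chromosome 7, 68736994 to 68749238, minus strand). Beyond the gene's far end, 3 untreated-only peaks lay 52247, 79260 and 96398 bp away, with scores of 1152.48, 243.52 and 272.78. Within the body there were 2, with scores of 288.25 and 62.93, and 1 lay 20911 bp before the start (176.95). Of the 53 peaks, the one of score 1152.48 was the highest.

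At Arrdc4 the shared regions also differed in outline. The 6 untreated-only peaks made up 13.6 kb of the 32.8 kb by which the untreated covered length was the larger in this window. All 5 regions with 1 peak in each list were 1.72 to 8.17 times wider in untreated spheroids. The start peak was 8363 bp untreated and 4689 bp after caerulein. A region 41123 bp beyond the far end was 10701 bp wide untreated and 1310 bp after caerulein, and its neighbours measured 2715 against 1537 bp, 3827 against 2223 bp and 3277 against 1761 bp. The region nearest to the gene's far end was 1 untreated peak of 13585 bp over 2 post-caerulein peaks of 4320 and 7388 bp, a ratio of covered length of 1.16.

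Samd9l encodes an interferon-inducible protein that restricts viruses and cell growth (chromosome 6, 3372257 to 3399571, minus strand). The peak at its start was almost identical in outline, 2115 bp untreated and 2092 bp after caerulein, with scores of 3100 and 1645.17 in their own lists. Downstream of it, 5 untreated-only peaks lay in the body, with scores, from the start on, of 147.16, 167.03, 82.41, 61.77 and 57.57. A further 3 peaks between 3341124 and 3345940, over the noncoding gene Gm20559, had scores of 70.07 to 350.36. All 8 formed 1 unbroken run of 56 kb, and no post-caerulein peak was listed on chromosome 6 before the one at the gene's start. The closest of the 8 lay 351 bp from that post-caerulein peak and was shared when a peak within 1 kb counted as overlap.

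Ssbp3 encodes a single-stranded DNA-binding cofactor that stabilises LIM-domain transcription complexes built on Ldb1 (chromosome 4, 106911470 to 107049694, plus strand). All 6 untreated-only peaks lay in its body, at scores of 90.44, 853.18, 56.12, 59.61, 220.11 and 86.43 in order from the start. They were interspersed with shared peaks, and no more than 2 followed each other. The start peak was 5893 bp untreated and 5401 bp after caerulein, with a score of 3100 in each list. Inside the body, shared regions measured 4779 against 2184 bp beside the untreated-only peak of score 853.18, and 2569 against 1801 bp further on, while another pair measured 2475 against 2557 bp. A broad region was 1 peak of 11220 bp untreated and 2 peaks of 4488 and 3571 bp after caerulein. Outside the body the widths were close, from 0.95 to 1.27 times those after caerulein.

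Shoc1 encodes a meiotic protein required for crossover formation in germ cells (chromosome 4, 59041984 to 59138983). Of its 7 untreated-only peaks, 4 lay in the body (scores 99.23, 53.26, 274.81 and 105.5), 3 of them also over the noncoding gene Gm35527. Beyond the higher-coordinate end, 3 lay 18054 to 24489 bp away (scores 902.99, 113.56 and 59.39), between Shoc1 and Ugcg, the ceramide glucosyltransferase gene. The post-caerulein list had a gap of 69 kb over 6 of the 7. A shared peak inside the body was 2717 bp wide untreated and 1880 bp after caerulein.

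The Shoc1 window held 6 more untreated-only peaks nearest to other genes, 4 at Dnajc25, a chaperone gene (scores 78.13 to 315.65), and 2 at Ugcg (60.32 and 124.24), making 13 untreated-only and 0 post-caerulein-only peaks. At Ugcg, 2 untreated peaks of 19223 and 976 bp lay over 5 post-caerulein peaks of 1064 to 5921 bp, while another domain beside the gene was 1 peak of 18429 bp after caerulein over 4 untreated peaks. The covered lengths of these domains were close, at 20199 against 18476 bp and 17747 against 18429 bp. The outlines at Ugcg therefore differed in both directions, whereas the list-only peaks of the window were all on the untreated side.

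Across the 8 windows, 43 shared regions had exactly 1 peak in each list. Many of these regions were neighbours within a locus, with 13 at Ssbp3 and 11 at Atp2b1, so they do not count as independent. The untreated peak was the wider in 33 of the 43 (76.7%), against 44.5% of 27197 such pairs in the genome. It was 1.5 times or more wider in 12, and 5.65% of pairs in the genome were. In 0 of the 43 was the post-caerulein peak wider by that factor, against 8.58% of pairs in the genome. Of the genome's pairs that differed by 1.5 times or more, 39.7% were wider in untreated. The 12 pairs were 5 at Arrdc4, 4 at Atp2b1 and 1 each at Clic5, Ssbp3 and Shoc1, and the median ratio over the 43 was 1.17, against 0.98 in the genome. Shared peaks were not counted by the rule, but the choice bears on them. With 0 post-caerulein-only peaks allowed, every post-caerulein peak assigned to these genes had to overlap an untreated peak. Shared peaks also belong to the same 2 libraries and the same contrast, so these counts are a description of the loci and not a separate test.

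**Figure D4:**
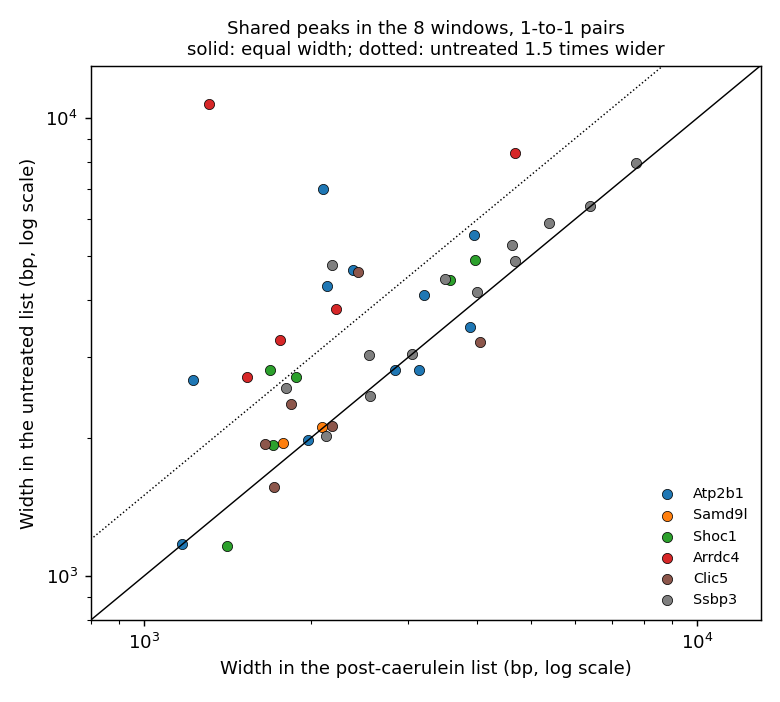
Width of shared peaks in the post-caerulein list (horizontal axis, bp, log scale) and in the untreated list (vertical axis, bp, log scale) for the 43 regions with 1 peak in each list; colours mark the locus, the solid line equal width and the dotted line an untreated peak 1.5 times as wide. The 5 Arrdc4 pairs lie above the dotted line, most Ssbp3 pairs lie along the solid line, and the lowest ratio of untreated to post-caerulein width is 0.80, at Clic5.

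The loci showed 2 arrangements. At Samd9l, Ceacam12, Fut9, Atp2b1 and Shoc1, 6 or more untreated-only peaks followed each other with no shared peak between them, counting peaks outside the windows. There were 16 such runs in the untreated list, which together held 0.289% of its peaks, and 17 in the post-caerulein list. At Arrdc4, Clic5 and Ssbp3 the longest unbroken runs held 4, 3 and 2 peaks, interrupted by shared ones. When peaks no more than 5 kb apart were joined, the 53 peaks formed 26 sites, 1 at Ceacam12, 2 at Samd9l and Fut9, 3 at Atp2b1 and Shoc1, and 5 at Arrdc4, Clic5 and Ssbp3. Of the 53 peaks, 1 lay within 1 kb of a post-caerulein peak and 9 lay within 5 kb, against 12.9% and 41.3% of all untreated-only peaks. Peaks in runs were chosen for having no post-caerulein-only peak assigned to their gene, so this is a description too.

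The reverse rule, 6 or more post-caerulein-only and 0 untreated-only peaks, was met by 36 genes (0.164%). Their 261 post-caerulein-only peaks had a median width of 1532 bp, and 17 of them reached the median score of the post-caerulein list. The 132 untreated-only peaks of the 20 genes of the untreated rule had a median width of 1783 bp, and 11 reached the median score of the untreated list. Over the whole lists, 6792 post-caerulein peaks (17.5%) and 5402 untreated peaks (14.3%) were list-only. For the 17 peaks, no share over all post-caerulein-only peaks is given. These differences were not tested.

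In the lists of relatives of the 8 genes, no other gene had more than 4 list-only peaks. Among 7 other calcium pump genes, 0 had more untreated-only peaks and 2 had more post-caerulein-only peaks, Atp2a2 (the endoplasmic reticulum pump, 1 untreated-only and 2 post-caerulein-only) and Atp2b3 (0 and 1). Among 4 other chloride intracellular channel genes, Clic6 had 0 untreated-only and 4 post-caerulein-only peaks and Clic4 had 1 and 0. Of 7 other fucosyltransferase genes only Fut8, which adds core fucose, had a list-only peak, 1 post-caerulein-only. Among 8 other alpha-arrestin and glucose-response genes, Arrdc3 and Txnip had 1 post-caerulein-only peak each, and Mlxip, which encodes the glucose-sensing activator MondoA, 1 untreated-only peak, the 3 being named after their values were seen. The shares over all genes were 11.4% with more untreated-only and 13.4% with more post-caerulein-only peaks.

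Among 8 other Ceacam genes, Ceacam1, an epithelial adhesion receptor gene, had 2 untreated-only peaks and a start marked in the untreated list alone, and Ceacam10 had 1 post-caerulein-only peak. Ssbp2 had 0 untreated-only and 2 post-caerulein-only peaks, and the other 3 genes of its list had 0 of either. All 11 other meiotic crossover genes were without a list-only peak, and of the 8 with a listed start 2 had it marked, in both lists (Msh5 and Mlh3, named after their values were seen). Of 8 other interferon-induced genes, 2 had more untreated-only peaks, Oasl2 and Bst2 with 2 each, and 0 had a post-caerulein-only peak. Starts of 7 of the 8 interferon-induced genes with a listed start, Samd9l included, were marked in both lists. For these counts of marked starts, too, no share over all genes is given.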

How the data were processed

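H3K27ac was measured by chromatin immunoprecipitation and sequencing, with cells fixed in 1% formaldehyde for 10 min, per the labels' protocols. Trimmomatic 0.38, MACS 1.4, SAMtools and Bowtie2 2.2.6, with GRCm38 (mm10), are listed in the submitters' processing notes. Each deposited list holds the position and score of peaks of 1 library. The deposited score is defined in no header, piles up at 3100 and was used within 1 list only. Caller options and control are not given in the sources used here. Overlap meant at least 1 bp (checked with bedtools 2.31.1), on chromosomes 1 to 19, X and Y. Genes and promoter sequences came from RefSeq tables of GRCm38.p6. Widths, runs and covered lengths were computed with pandas 2.3.3, and tested on simulated data where code classifies or assigns peaks. Peaks in gene windows were clipped at the window edge for covered length. The loci and gene lists were chosen with earlier results of these data known. Named genes are the 8 loci, all genes of the rule, 4 just outside it, neighbours with a list-only peak, and up to 2 relatives per family with the largest difference; other exceptions are marked in the text. Marker genes and noncoding genes under peaks are also named, chosen after their values were seen. Relatives and markers come from lists written for this work. Alternatives were overlap, merging, score and distance limits and assignment.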

Additional observations from a re-analysis of the deposited data

How the results depend on the processing

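The 250 kb limit was chosen after seeing the data. The 53 untreated-only peaks became 5 when held to the median score and 15 with a 10 kb limit. The 58 more untreated-only than post-caerulein-only peaks in the windows became 5 and 34 under these limits. The number of the 8 loci that met the rule was 0 and 1, and it was 2 after merging within 1 kb and 4 with a 50 kb limit (Atp2b1, Samd9l, Shoc1 and Ceacam12). In the genome the 20 genes became 0, 1, 6 and 10 under the same settings, 35 when overlap needed 50% of the peak's length, and 112 when every peak in a window counted for its gene. Under that last setting 7 of the 8 loci met the rule, all but Atp2b1. The ratio of covered length (315.0 kb untreated to 164.4 kb), 1.92, was 2.49 with 10 kb on each side, 2.21 with 50 kb, 1.71 with peaks at or above the median score and 1.93 with equal numbers of peaks. Among pairs whose widths differed by 1.5 times or more, 100% (12 of 12) were wider in untreated, against 39.7% in the genome. The fall from 53 to 5 peaks restates that 5 of the 53 lay at or above the median score. Why the scores were low was not tested, nor was the cause of other changes under that limit. No direction reversed under these settings, but counts of peaks or genes cannot reverse. The window differences, covered lengths and pair widths come from the contrast that chose the loci. The lack of a reversal therefore supports nothing further. Unknown depth limits every list-only peak near the caller's lowest score. No paired analysis was possible because there is 1 library per condition, and no library could be left out.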

Other observations

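Beyond the 100 kb limit, further untreated-only peaks lay before Atp2b1, apart from the run in its body. Between 104607 and 236418 bp before the gene, 11 more untreated-only peaks had widths of 1066 to 3531 bp and scores of 72.47 to 1053.24. Of these, 7 followed each other without interruption, from 98703924 to 98786709. Within 250 kb of the gene body there were 20 untreated-only and 3 post-caerulein-only peaks, among 45 untreated and 31 post-caerulein peaks in all. Within 500 kb there were 25 and 4, among 54 and 36. This stretch was examined after its values had been seen.

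Within 500 kb of the other gene bodies, untreated-only and post-caerulein-only peaks numbered 21 and 1 at Shoc1, 16 and 2 at Ssbp3, 14 and 1 at Clic5, 9 and 1 at Ceacam12, 8 and 0 at Samd9l, 7 and 0 at Arrdc4, and 7 and 0 at Fut9. The sparsest surroundings were those of Fut9, with 8 untreated peaks and 1 post-caerulein peak in all, and of Samd9l, with 10 and 2.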
